A study of Mus musculus with 12 samples.

Results

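The genes described here make and run the lysosome and the autophagy pathway of MC38-idAdpgkG cells, an engineered line from the mouse colon carcinoma line MC38. They were taken as a fixed list of 49 symbols, all of them found among the 27179 gene rows of the deposited count table, chosen by function, with no threshold on a measured value. Of the 49, 48 passed the filter on low counts, which kept 12910 genes in all. By role, the list held 6 membrane proteins, 7 proteases or protease partners, 7 glycosidases, 3 lipid-handling proteins or cofactors, 3 regulators, 6 genes of autophagy initiation, 8 of autophagy conjugation and cargo reception, and 9 subunits of the vacuolar proton pump (V-ATPase).

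The line is of C57BL/6 origin and carries a doxycycline-inducible transgene for mutant Adpgk fused to turboGFP, which can be removed at the protein level with the degrader molecule dTAG-13. All 4 groups received 20 ng/mL mouse interferon-gamma for 51 h, the controls included. The control group received nothing else, the dTAG-13 group also 1 µM dTAG-13 for the last 3 h, the doxycycline group also 1 µg/mL doxycycline for 51 h, and the fourth group both agents on those schedules. Each group was 1 culture of the 1 engineered line, measured in 3 libraries that were technical replicates, so that SDs, SEs and p-values cover the spread between libraries of a culture and not between cultures, and a difference between treatments cannot be told apart from a difference between cultures. Cells without interferon-gamma and the parental line were not analysed here.

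Library totals ran from 22165538 to 32809573 counts. Adpgk, the induced gene, was at 157.6 to 162.0 CPM (read counts scaled to a common library total with TMM factors) in control, 176.7 to 184.9 with dTAG-13, 1316 to 1355 with doxycycline and 1351 to 1379 with both. Of 9 epithelial markers none reached 1 CPM, and Epcam and Cdx2 had no read, so that an epithelial identity was not visible in these transcripts. Of 8 mesenchymal markers 5 reached 1 CPM, while Col1a1, Col1a2 and Lum stayed at or under 0.351 CPM. Their sum was 2660 to 2710 CPM in control, 2720 to 2760 with doxycycline, 2300 to 2340 with dTAG-13 and 2180 to 2250 with both. Within the sum, Vim had mean levels of 1500 CPM in control, 1200 with dTAG-13 and 1300 with doxycycline, Col3a1 850, 756 and 1100, and Dcn 164, 199 and 143. Of 11 leukocyte and macrophage markers, 1 (Cd14) reached 1 CPM, Ptprc had 3 reads over all libraries, Adgre1 had 1, and C1qa and Cd3e had none. The leukocyte sum was 6.44 to 8.17 CPM without dTAG-13 and 8.37 to 9.19 with it. The part of these markers in the results on the members was not tested.

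Lysosomes are acidic organelles in which hydrolases break down proteins, glycans and lipids delivered by endocytosis and autophagy, and the V-ATPase pumps in the protons that these enzymes need. In autophagy, the ULK1 kinase complex and the BECN1 lipid kinase complex start a membrane, ATG9A vesicles and WIPI proteins help it to grow, and the ubiquitin-like ATG8 proteins (the LC3 and GABARAP families) are coupled to it, where receptors such as SQSTM1 bring in cargo. The transcription factors TFEB and TFE3 bind E-box elements of the CLEAR type in promoters of many of these genes, and the lysosome also supplies peptides for MHC class II presentation.

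Promoter windows of the members were read first, because CLEAR elements are known from promoters of many such genes, though not all. A RefSeq promoter entry (GRCm38.p6, 250 bases before to 50 after the start) was found for 41 members. A gene could have more than 1 start (32851 windows for 27025 genes), and a match in any of its windows was counted. The E-box core CACGTG was present in 13 of them (31.7%), compared with 8.09% of 27025 genes with such an entry. These genes were not limited to those passing the filter on low counts, which 48 of the 49 members passed. The core with its flanking bases, TCACGTGA, was present in 7 (17.1%, against 1.12% of all genes), and GTCACGTGAC in 1, Cln3 (2.44% against 0.37%). The 3 motifs are nested, and each reads the same on both strands. A match describes letters in the window and not a bound site. The 7 members with TCACGTGA encode a calcium channel (Mcoln1), a membrane protein lost in a neuronal storage disease (Cln3), 2 cathepsins (Ctsa, Ctsd), a galactosidase (Gla) and 2 V-ATPase subunits (Atp6v0d1, Atp6v1a). Their matches are shown on the gene's strand, 5′ to 3′, with the motif in capitals, and Ctsa and Gla hold 2 each. The stretches of Cln3, Ctsa and Atp6v1a lie inside the annotated gene, at a start other than its outermost one.

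Mcoln1, chr8:3500457-3500496 (+): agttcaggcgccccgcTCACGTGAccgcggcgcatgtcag
Cln3, chr7:126583335-126583374 (-): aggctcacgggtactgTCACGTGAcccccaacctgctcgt
Ctsa, first match, chr2:164833744-164833783 (+): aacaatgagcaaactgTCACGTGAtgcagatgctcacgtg
Ctsa, second match, chr2:164833761-164833800 (+): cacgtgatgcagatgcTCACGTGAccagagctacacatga
Ctsd, chr7:142387903-142387942 (-): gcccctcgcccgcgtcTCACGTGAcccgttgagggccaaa
Gla, first match, chrX:134601210-134601249 (-): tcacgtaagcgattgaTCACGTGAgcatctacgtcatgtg
Gla, second match, chrX:134601177-134601216 (-): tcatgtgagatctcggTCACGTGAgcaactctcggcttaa
Atp6v0d1, chr8:105566045-105566084 (-): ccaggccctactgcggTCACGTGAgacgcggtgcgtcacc
Atp6v1a, chr16:44139368-44139407 (-): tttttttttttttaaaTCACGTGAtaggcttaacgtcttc

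The upstream stretch of Gla is given in full because Gla carried a pair of matches and was higher in each of the 4 pairwise comparisons below. Gla was thus picked with its values known. Gabarap and Atp6v1e1 were also called higher in all 4, and their windows lack the core. With TMM factors over all 12 libraries, and no correction for transcript length and GC content, Cln3 was not called at all. In that fit Ctsa, which holds 2 matches too, was not called when either agent was added to the other. Some other settings called them. When dTAG-13 was added to doxycycline, Ctsa was called at 0.14 after that correction, and Cln3 at -0.26 without the first doxycycline library. With doxycycline added to dTAG-13, Ctsa was called at -0.089 without the second library of both agents. The Gla stretch covers chrX:134601006-134601255 on the minus strand, with the 2 E-box cores in capitals.
Gla, upstream: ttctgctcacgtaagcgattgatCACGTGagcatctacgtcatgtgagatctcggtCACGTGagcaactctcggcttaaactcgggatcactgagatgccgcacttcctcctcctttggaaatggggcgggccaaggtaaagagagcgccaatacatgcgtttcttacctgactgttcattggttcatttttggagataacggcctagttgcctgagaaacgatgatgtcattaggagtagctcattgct

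The 49 members together took 1.038 ± 0.00513% of all counts in control, 1.091 ± 0.00231% with doxycycline, 1.153 ± 0.00656% with both agents and 1.227 ± 0.008% with dTAG-13 (mean ± SD, n = 3). Each library of a group lay apart from those of the others. In bulk RNA, fewer cells that make a transcript and less of it per cell cannot be told apart. Per kilobase of the longest annotated transcript, Sqstm1 led with a mean level of 633.5 RPKM over the 12 libraries, ahead of Psap (513.5), Ctsl (446.2), Lamp1 (231.3) and Ctsz (224.4). The least abundant were Tfeb (2.69), Cln3 (2.47), Hyal1 (0.44) and Ctss (0.046). The place of Ctsl depends on the transcript length used, 6168 bases, compared with 2673 for Sqstm1. In CPM, not divided by length, Ctsl had a mean of 2752 and Sqstm1 1693. Ctsl alone made up 22.04 ± 0.184% of the members' counts in control and 26.3 ± 0.277% with dTAG-13.

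Against control, dTAG-13 was followed by higher levels of most hydrolases, of Lamp2 and of the 5 ATG8 genes, and by lower levels of Ulk1, Atp6v0a1, Tfe3, Atg9a and Npc1. At a Benjamini-Hochberg adjusted p under 0.05 in edgeR's quasi-likelihood test, 37 of 48 members were called, 26 higher and 11 lower. The background was 62.1% of all genes called, 30.0% higher and 32.1% lower, compared with 77.1% of the members. The median log2 fold change was 0.11 over members and 0.019 over all genes, and no member changed by 2-fold. The control and dTAG-13 libraries did not overlap for 37 members (65.5% of all genes). With library totals in place of TMM scaling, 33 members were higher and 8 lower, while all genes moved to 40.7% higher and 24.1% lower, with a median of 0.11.

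When dTAG-13 was added to doxycycline-treated cells, the called members divided almost evenly. Called were 38 of 48, 21 higher and 17 lower, against 64.1% of all genes (30.7% higher, 33.4% lower). The median was 0.007 over members and 0.003 over all genes. The libraries did not overlap for 40 members, compared with 67.2% of all genes. After a correction of each library for transcript length and GC content, the split turned to 15 higher and 23 lower, and the median to -0.093. Of all genes, 23.1% were then higher and 29.3% lower, with a median of -0.016.

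The 2 dTAG-13 comparisons share no library. Across the 48 members their log2 fold changes had a Pearson correlation of 0.64 (Spearman 0.75), and across all genes the Pearson value was 0.68. These correlations are across genes, which are not independent replicates and which share the length dependence given below. Of the 33 members called in both comparisons, 20 were higher in both and 10 lower in both. Glb1, Hyal1 and Mcoln1 were higher without doxycycline and lower with it. Calls shared by both comparisons were not counted over all genes, of which 62.1% and 64.1% were called in the 2 comparisons. In 35 of 48 members the fold change was more positive without doxycycline than with it.

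**Figure D1:**
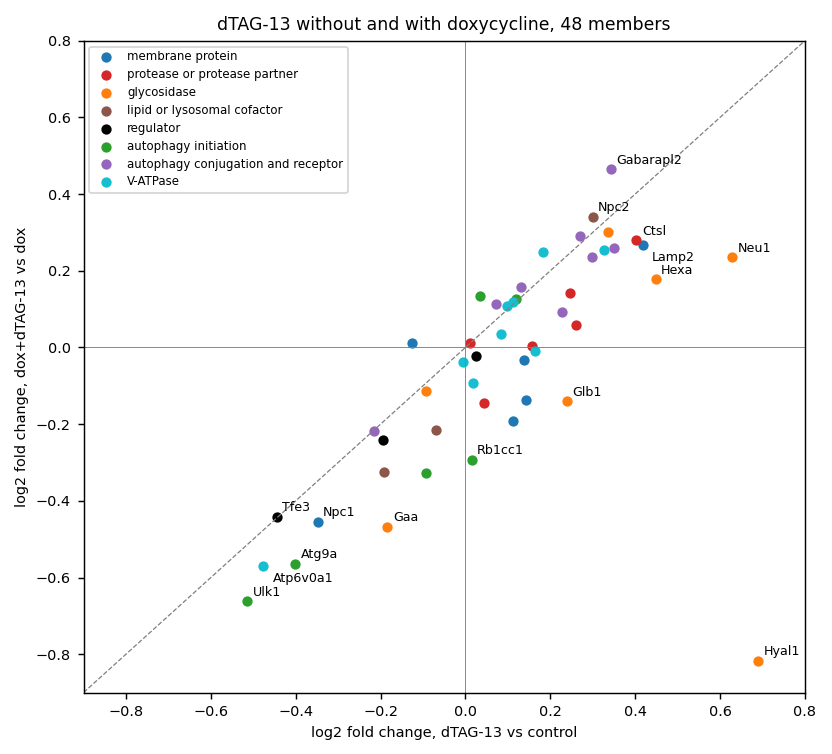
The log2 fold change after dTAG-13 in cells without doxycycline (horizontal axis) is plotted against that in doxycycline-treated cells (vertical axis) for the 48 tested members, coloured by role, with the dashed line marking equal values. Most points lie along the line or under it (35 of 48 are under it), and Hyal1 is far below at 0.69 and -0.82.

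**Figure D2:**
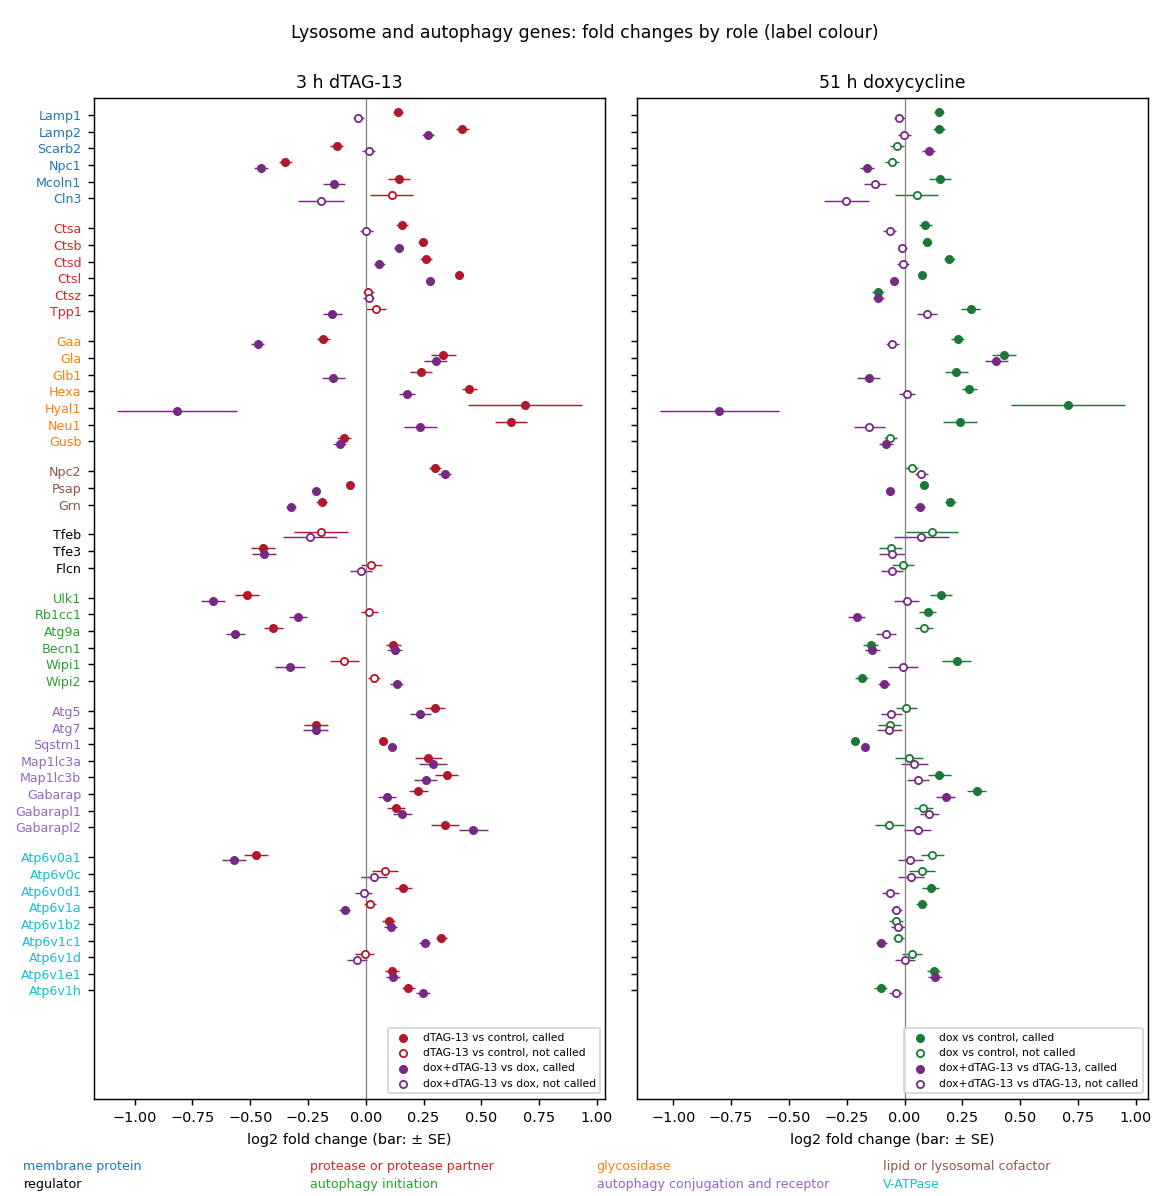
Log2 fold changes of the 48 tested members are shown by role for the 4 pairwise comparisons, 1 point per gene with its SE, filled where the edgeR adjusted p was under 0.05. The ATG8 genes among the conjugation group stand above 0 in both dTAG-13 comparisons. In doxycycline against control, 11 of the 13 tested hydrolases were called above 0, compared with 14.8% of all genes.

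Of the regulators, Tfe3 was the only 1 of the 3 called. TFEB and TFE3 are sister transcription factors, and FLCN is a GTPase-activating protein that helps mTORC1 to hold them in the cytosol. Tfe3 (Entrez 209446, chrX:7762530-7775202) was at 38.0, 38.9 and 40.1 CPM in the control libraries, 31.2, 27.3 and 27.3 with dTAG-13, 36.8, 38.0 and 37.5 with doxycycline and 26.3, 28.9 and 27.4 with both. The dTAG-13 libraries lay under all libraries without it. The fold change was -0.45 on the log2 scale (SE 0.0514, edgeR adjusted p 6.99e-10) against control and -0.44 (SE 0.0531, adjusted p 1.66e-09) among doxycycline-treated cells, and -0.30 and -0.29 once corrected for length and GC content, both still called.

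Tfeb (Entrez 21425, chr17:47737037-47792416) was scarce. It had 7.06, 6.51 and 5.82 CPM in control, 5.88, 5.95 and 5.13 with dTAG-13, 6.6041, 7.67 and 6.83 with doxycycline and 6.91, 6.21 and 4.95 with both. These ranges overlapped in each pairwise comparison, and none was called (log2 fold change -0.19, adjusted p 0.142, for dTAG-13 against control, and -0.24, adjusted p 0.065, among doxycycline-treated cells). The second value was called without the first doxycycline library (-0.30) or the first library of both agents (-0.35). Flcn (Entrez 216805, chr11:59791408-59810039) was at 37.5, 37.2 and 38.7 CPM in control, 37.6, 38.3 and 39.5 with dTAG-13, 39.1, 37.1 and 36.6 with doxycycline and 35.7, 36.1 and 39.0 with both. Its groups overlapped, with log2 fold changes from -0.053 to 0.024 over the 4 pairwise comparisons and adjusted p from 0.484 to 0.925. Corrected for length and GC content, Flcn was called higher with dTAG-13 against control (0.13).

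Among the proteases, 4 of the 6 tested rose with dTAG-13 against control and none fell, by edgeR or DESeq2 or at an unadjusted p under 0.05. By edgeR, 30.0% of all genes rose and 32.1% fell. Cathepsin L, a cysteine endoprotease, was the most abundant of them in CPM. Ctsl (Entrez 13039, chr13:64361890-64370772) had 2349, 2396 and 2346 CPM in control and 3119.5, 3172 and 3082 with dTAG-13. With doxycycline it had 2481, 2476 and 2524, and with both agents 3048, 2989 and 3039. All 6 libraries with dTAG-13 exceeded the 6 without it. The rise was 0.40 (SE 0.0165, edgeR adjusted p 1.74e-23) against control and 0.28 (SE 0.0165, adjusted p 2.82e-18) among doxycycline-treated cells. Of the exon bases of Ctsl, 28.2% are shared with an antisense transcript, and whether reads were counted by strand is not given in the sources used here.

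The aspartic protease cathepsin D was also lowest in control, with smaller differences by dTAG-13 than Ctsl and a larger one by doxycycline alone. Ctsd (Entrez 13033, chr7:142375910-142387827) was at 254, 248 and 239.7 CPM in control, 298, 298 and 293 with dTAG-13, 276, 284 and 288 with doxycycline and 297, 292 and 296 with both. The controls were lowest and the doxycycline libraries next, and both dTAG-13 groups overlapped at the top. The log2 fold change was 0.26 (adjusted p 3.37e-12) with dTAG-13, 0.19 (adjusted p 3.61e-08) with doxycycline, and 0.059 (adjusted p 0.0324) for dTAG-13 among doxycycline-treated cells. That last call was lost once corrected for length and GC content (0.033) and when any of 7 single libraries was left out. Ctsd shares 31.5% of its exon bases with another annotated gene on the same strand.

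The cysteine protease Ctsb and the protective protein Ctsa, a carboxypeptidase that stabilises NEU1 and GLB1, also rose against control, by 0.25 (adjusted p 1.49e-14) and 0.16 (adjusted p 3.42e-06). Among doxycycline-treated cells Ctsb rose by 0.14 (adjusted p 2.35e-08), and Ctsa had a log2 fold change of 0.003 (adjusted p 0.94). Both genes share exon bases with a gene on the opposite strand. The carboxypeptidase gene Ctsz (Entrez 64138, chr2:174427494-174439039) had 342, 339.6 and 323 CPM in control, 346, 328 and 338 with dTAG-13, 305, 310.1 and 313 with doxycycline and 310.3, 309.5 and 316 with both. The doxycycline-treated libraries lay below the others. With dTAG-13 the Ctsz value was 0.011 against control and 0.012 among doxycycline-treated cells, neither of them called. Ctsz was called lower in both once corrected for length and GC content (-0.056 and -0.14), and by library totals alone it was called higher against control (0.10). It fell by 0.12 with doxycycline (adjusted p 0.000249) and by 0.11 when doxycycline was added to dTAG-13 (adjusted p 0.000585). Tpp1 (Entrez 12751, chr7:105744811-105752282), a tripeptidyl peptidase, had 48.0, 49.9 and 49.6 CPM in control, 49.5, 51.3 and 51.2 with dTAG-13, 62.0, 60.9 and 56.9 with doxycycline and 54.8, 55.7 and 52.2 with both. The doxycycline libraries were the highest of the 12. Tpp1 rose by 0.29 with doxycycline (adjusted p 3.99e-07) and fell by 0.15 when dTAG-13 was added to it (adjusted p 0.00205).

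Cathepsin S, which trims the invariant chain of MHC class II in antigen-presenting cells, was all but silent. Ctss (Entrez 13040, chr3:95526786-95556405) had 0, 1 and 1 reads in the control libraries, 4, 2 and 3 with dTAG-13, 3, 3 and 0 with doxycycline, and 0, 3 and 2 with both. It was the only member to miss the filter and was not tested.

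All 7 glycosidases were called in both dTAG-13 comparisons, in which 62.1% and 64.1% of all genes were called. Against control 5 rose and 2 fell, and among doxycycline-treated cells 3 rose and 4 fell. Neu1, a sialidase, and Hexa, the alpha subunit of the hexosaminidase that degrades GM2 ganglioside, rose in both. Neu1 (Entrez 18010, chr17:34931253-34937297) had 11.6, 12.5 and 13.2 CPM in control, 19.5, 19.0 and 19.0 with dTAG-13, 13.8, 14.9 and 15.4 with doxycycline and 16.8, 16.4 and 18.5 with both. The dTAG-13 group stood above all the others. Its log2 fold change was 0.63 (SE 0.0696, edgeR adjusted p 2.57e-10) against control and 0.24 (SE 0.0704, adjusted p 0.00351) among doxycycline-treated cells. The second call was lost without the third library of both agents, at 0.17.

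Hexa (Entrez 15211, chr9:59539540-59565109) had 109, 114 and 108 CPM in control, 148, 153 and 150.4 with dTAG-13, 134, 140.1 and 128 with doxycycline and 155, 143 and 156 with both. The control libraries were lowest, the doxycycline libraries came next, and both dTAG-13 groups overlapped at the top. Hexa rose by 0.45 (adjusted p 4.85e-14) against control and by 0.18 (adjusted p 1.56e-05) among doxycycline-treated cells. Glb1 (Entrez 12091, chr9:114401078-114474379), a beta-galactosidase, had 37.2, 39.996 and 44.5 CPM in control, 45.9, 48.7 and 48.9 with dTAG-13, 47.2, 47.9 and 46.8 with doxycycline and 43.8, 43.5 and 41.6 with both. Each agent alone gave higher libraries than control, and both together gave the control range. Glb1 rose by 0.24 (adjusted p 3.94e-05) with dTAG-13 against control and fell by 0.14 (adjusted p 0.012) among doxycycline-treated cells, a call that was lost without the third library of both agents (-0.12).

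Gla (Entrez 11605, chrX:134588169-134601005), the alpha-galactosidase whose promoter is printed above, rose in all 4 pairwise comparisons. It had 21.4, 21.9 and 22.1 CPM in control, 27.6, 27.5 and 27.4 with dTAG-13, 28.4, 29.6 and 30.2 with doxycycline and 36.6, 34.6 and 37.4 with both. The controls were lowest, each agent alone stood above them, and the libraries with both were highest, without overlap. The log2 fold changes were 0.34 for dTAG-13 and 0.43 for doxycycline against control, 0.30 for dTAG-13 added to doxycycline and 0.40 for doxycycline added to dTAG-13 (SE 0.0498 to 0.0525, edgeR adjusted p 1.38e-08 to 1.32e-06). Gaa (Entrez 14387, chr11:119267963-119285458), the acid alpha-glucosidase that degrades lysosomal glycogen, behaved otherwise. It had 198, 200.01 and 189.8 CPM in control, 168, 176 and 174 with dTAG-13, 228, 233 and 228 with doxycycline and 167, 173 and 159 with both. The doxycycline libraries were highest, and those with dTAG-13 lay under all libraries without it. Gaa fell by 0.18 against control (adjusted p 3.29e-07) and by 0.47 among doxycycline-treated cells (adjusted p 5.61e-18). Corrected for length and GC content, the first value was 0.012 and not a fall, and the second was -0.26. Gusb, the beta-glucuronidase, fell by 0.094 and 0.11 in the same comparisons (adjusted p 0.0047 and 0.000933), and by library totals alone the first was no longer called (-0.002).

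Hyal1 (Entrez 15586, chr9:107576950-107581699), a hyaluronidase, had the largest fold changes of any member on the fewest reads of any tested. It had 21, 37 and 35 reads in control, 52, 56 and 43 with dTAG-13, 46, 41 and 63 with doxycycline, and 18, 30 and 27 with both. In CPM these were 0.659, 1.19 and 1.24 in control, 1.67, 1.802 and 1.48 with dTAG-13, 1.49, 1.37 and 2.1747 with doxycycline and 0.802, 1.18 and 0.862 with both. Each agent alone stood above control without overlap, and the group with both overlapped control. The log2 fold change was 0.69 (SE 0.246, adjusted p 0.0143) for dTAG-13 against control and -0.82 (SE 0.258, adjusted p 0.00557) among doxycycline-treated cells. The first call was lost without the first control library or the second dTAG-13 library (range 0.43 to 0.83 over single omissions), and the second without the third doxycycline library (-0.997 to -0.591). Hyal1 shares 21.7% of its exon bases with Naa80 on the same strand, which was itself at 5.98 CPM.

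The 3 lipid-handling proteins and cofactors did not move together. Npc2, a soluble cholesterol carrier, rose, while Psap and Grn fell in both dTAG-13 comparisons. Npc2 (Entrez 67963, chr12:84754559-84773112) had 147, 145 and 148 CPM in control, 188, 174 and 179 with dTAG-13, 151, 148 and 151 with doxycycline and 193, 187 and 189.5 with both. All libraries with dTAG-13 exceeded those without it, at log2 fold changes of 0.30 (adjusted p 1.43e-12) and 0.34 (adjusted p 3.75e-14). Grn, the progranulin gene, fell by 0.19 and 0.32 (adjusted p 1.24e-09 and 4.89e-16). Psap, the precursor of the saposins that help glycosidases to act on lipids, fell by 0.069 and 0.21 (adjusted p 0.000719 and 5.88e-14). Corrected for length and GC, the first Psap value was -0.034 and not called, and by library totals alone it was 0.022.

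**Figure D3:**
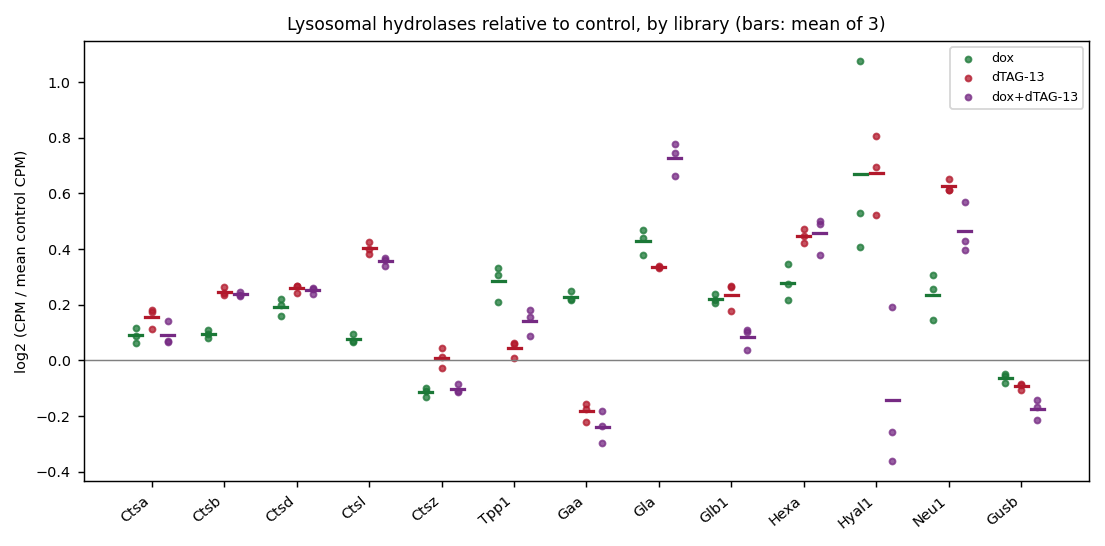
CPM of the 13 tested hydrolases in each treated library is plotted relative to the control mean on a log2 axis, 1 point per library with a bar at the mean of 3. For 10 of the 13 the dTAG-13 effect was called less positive with doxycycline than without it in the test of the interaction, Hyal1 the most (-1.51). Of all genes, 9.64% were called lower in that test.

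The lysosomal membrane proteins gave 3 higher and 2 lower calls of 6 against control, beside 30.0% and 32.1% of all genes. Among doxycycline-treated cells the calls were 1 and 2, beside 30.7% and 33.4% of all genes. Lamp2 and Lamp1 are the heavily glycosylated proteins that line the membrane. Lamp2 (Entrez 16784, chrX:38399647-38456460) had 153, 162 and 158 CPM in control, 209.7, 215 and 207 with dTAG-13, 178, 174 and 172 with doxycycline and 215, 206 and 211 with both. The controls were lowest and both dTAG-13 groups, which overlapped, highest. Lamp2 rose by 0.42 (SE 0.0268, edgeR adjusted p 4.11e-17) against control and by 0.27 (SE 0.0269, adjusted p 1.65e-11) among doxycycline-treated cells. Corrected for length and GC content, these were 0.18 and 0.083, both called. Lamp1 (Entrez 16783, chr8:13159161-13175338) had 479.5, 462 and 500.2 CPM in control, 521, 534 and 532 with dTAG-13, 526, 534 and 537 with doxycycline and 524, 524 and 514 with both. The controls lay under the 9 other libraries. Lamp1 rose by 0.14 (adjusted p 1.56e-06) with dTAG-13 and 0.15 (adjusted p 1.9e-06) with doxycycline, and had a log2 fold change of -0.032 (adjusted p 0.223) for dTAG-13 among doxycycline-treated cells.

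Npc1 (Entrez 18145), the membrane partner of Npc2 in cholesterol export, moved the opposite way to it. It had 134, 134 and 134 CPM in control, 104, 106 and 106 with dTAG-13, 133, 124 and 130.4 with doxycycline and 92.1, 94.9 and 95.6 with both. The 6 libraries with dTAG-13 lay below the 6 without. Npc1 fell by 0.35 (adjusted p 1.54e-13) against control and by 0.45 (adjusted p 1.08e-16) among doxycycline-treated cells, and by 0.14 and 0.20 once corrected for length and GC content, both called. Scarb2 (Entrez 12492, chr5:92441311-92505657), the receptor that carries glucocerebrosidase to lysosomes, had 122, 124 and 122 CPM in control, 112, 115 and 110.2 with dTAG-13, 122, 119.6 and 118 with doxycycline and 118, 121 and 123 with both. The dTAG-13 libraries were the lowest, and the other 3 groups lay close together. Scarb2 fell by 0.13 (adjusted p 0.000208) against control, a call that was lost with library size only (-0.034) and once corrected for length and GC content (-0.044). The calcium channel gene Mcoln1 rose by 0.14 (adjusted p 0.00861) against control and fell by 0.14 (adjusted p 0.0117) among doxycycline-treated cells. The first Mcoln1 call was lost without the second dTAG-13 library (0.11) and the second without the third library of both agents (-0.088). Cln3 was not called in any comparison by TMM scaling over the 12 libraries, with pairwise log2 fold changes from -0.25 to 0.11. By library totals alone it was called lower with doxycycline on dTAG-13 (-0.29) and in the interaction (-0.38), and among doxycycline-treated cells it was called lower with dTAG-13 without the first doxycycline library (-0.26).

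Of the 9 V-ATPase subunits, 5 were called higher and 1 lower against control, and 4 and 2 among doxycycline-treated cells. That was 66.7% called in each comparison, near the 62.1% and 64.1% of all genes. Atp6v0a1, a subunit of the membrane part through which protons pass, fell. Subunits of the cytosolic ATPase part made most of the rises, of which not all held after the length and GC correction, as given below. The membrane part did not move as 1: Atp6v0d1 was called higher against control, and Atp6v0b, outside the list, rose by 0.62 and 0.66. Atp6v0a1 (Entrez 11975, chr11:101009422-101063719) had 45.2, 48.981 and 46.0 CPM in control, 32.2, 33.5 and 35.1 with dTAG-13, 48.0, 53.1 and 51.2 with doxycycline and 31.5, 37.4 and 33.5 with both. The libraries with dTAG-13 were all below those without it. The log2 fold changes were -0.48 (SE 0.0519, edgeR adjusted p 3.32e-10) and -0.57 (SE 0.0524, adjusted p 3.83e-12), and both remained called once corrected for length and GC content (-0.33 and -0.41).

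Atp6v1h (Entrez 108664, chr1:5082978-5163213), a subunit that regulates the coupling of the ATPase, had 112, 117 and 116 CPM in control, 128, 133 and 131 with dTAG-13, 108, 105 and 108 with doxycycline and 128, 126 and 127 with both. All libraries with dTAG-13 were above those without it. Atp6v1h was called higher by 0.18 (adjusted p 4.34e-07) and 0.25 (adjusted p 7.42e-10), and once corrected for length and GC content the values were -0.080, called lower, and -0.024, not called. Atp6v1e1 (Entrez 11973, chr6:120795244-120822698), a stalk subunit, had 93.3, 93.1 and 95.9 CPM in control, 102, 102 and 101 with dTAG-13, 101, 102 and 104 with doxycycline and 111, 114 and 109.7 with both. It stepped up with each agent and was called higher in all 4 pairwise comparisons, by 0.11 to 0.13, but the dTAG-13 values turned to -0.10 and -0.19 after the correction, both called lower. Atp6v1c1 rose by 0.33 and 0.25 (adjusted p 3.63e-15 and 6.02e-12), of which the second was not called after the correction (0.033). Atp6v1b2, a nucleotide-binding subunit, rose by 0.099 and 0.11 (adjusted p 0.00287 and 0.00152) and was called in every setting tried. Atp6v0d1 rose by 0.16 with dTAG-13 against control (adjusted p 0.000205; corrected 0.061, not called), and Atp6v1a fell by 0.092 among doxycycline-treated cells (adjusted p 0.00124). Atp6v0c, which has annotated pseudogenes, and Atp6v1d were not called in any comparison with TMM scaling, the filter and all 12 libraries. Atp6v0c was called higher with dTAG-13 against control by library totals (0.18), with no filter (0.084) and with only the groups compared (0.082), and it was called lower among doxycycline-treated cells after the correction (-0.20). After it Atp6v1d was called lower in both (-0.13 in each).

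Of the 6 genes of autophagy initiation, 1 rose and 2 fell against control, where 30.0% of all genes rose and 32.1% fell. Among doxycycline-treated cells 2 rose and 4 fell, beside 30.7% and 33.4% of all genes. Ulk1 (Entrez 22241, chr5:110784489-110810120), the kinase that starts the process, had 42.2, 43.7 and 47.7 CPM in control, 29.5, 32.5 and 31.4 with dTAG-13, 50.9, 51.0 and 46.8 with doxycycline and 31.7, 32.7 and 29.9 with both. Every library with dTAG-13 was below every library without it. Ulk1 fell by 0.51 (SE 0.051, edgeR adjusted p 1.48e-11) against control and by 0.66 (SE 0.0515, adjusted p 1.42e-14) among doxycycline-treated cells. Corrected for length and GC content, the falls were 0.19 and 0.30, both called.

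Atg9a (Entrez 245860, chr1:75180861-75192010), the scramblase of the vesicles that seed the autophagosome, had 63.1, 63.1 and 64.5 CPM in control, 46.6, 48.3 and 49.6 with dTAG-13, 67.0, 70.8 and 64.2 with doxycycline and 45.0, 47.3 and 44.5 with both. It was likewise lower in all libraries with dTAG-13. It fell by 0.40 (adjusted p 2.93e-11) and 0.56 (adjusted p 3.07e-15), and by 0.17 and 0.31 after the correction, both called. Atg9a shares 41.8% of its exon bases with an overlapping processed transcript on its strand. Rb1cc1 (Entrez 12421, chr1:6214634-6276375), the scaffold FIP200 of the ULK1 complex, had 70.8, 70.4 and 76.2 CPM in control, 73.4, 75.0 and 71.1 with dTAG-13, 78.9, 75.9 and 78.2 with doxycycline and 65.1, 62.9 and 62.3 with both. The libraries with both agents lay below all the others. Rb1cc1 fell by 0.29 (adjusted p 8.04e-09) when dTAG-13 was added to doxycycline, and by 0.15 after the correction, still called, and it had a log2 fold change of 0.015 (adjusted p 0.74) against control.

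Becn1 (Entrez 56208, chr11:101288258-101302286), the core of the lipid kinase complex, had 105, 108 and 98.9 CPM in control, 115, 112 and 112 with dTAG-13, 93.7, 94.5 and 93.9 with doxycycline and 101, 102 and 105 with both. The doxycycline libraries were lowest and the dTAG-13 libraries highest. Becn1 rose by 0.12 (adjusted p 0.00129) and 0.13 (adjusted p 0.000872), and fell by 0.15 (adjusted p 0.000381) with doxycycline against control. Of its exon bases, 29.6% are shared with Cntd1 on the opposite strand, which was at 1.53 CPM. Wipi2 (Entrez 74781, chr5:142629533-142669672), which recruits the conjugation machinery to the membrane, had 149.7, 148 and 154 CPM in control, 156, 153 and 153 with dTAG-13, 134, 133 and 129 with doxycycline and 143, 147 and 144 with both. The doxycycline libraries were lowest. Wipi2 rose by 0.13 (adjusted p 4.58e-05) when dTAG-13 was added to doxycycline, and its value against control was 0.035 (adjusted p 0.263). Corrected for length and GC content, these were 0.40 and 0.27, both called. Its relative Wipi1 fell by 0.33 (adjusted p 2.44e-05) among doxycycline-treated cells.

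The ATG8 family had all 5 listed genes called higher in both dTAG-13 comparisons, at medians of 0.27 and 0.26. Of all genes, 30.0% and 30.7% were called higher. Map1lc3b (Entrez 67443, chr8:121590438-121598760), which encodes the common autophagosome marker LC3B, had 46.8, 50.8 and 49.6 CPM in control, 64.5, 64.5 and 58.6 with dTAG-13, 59.4, 53.0 and 50.6 with doxycycline and 64.3, 67.4 and 63.7 with both. In neither dTAG-13 comparison did the libraries overlap. The log2 fold changes were 0.35 (SE 0.0495, edgeR adjusted p 4.32e-07) and 0.26 (SE 0.0495, adjusted p 3.97e-05). Gabarapl2 (Entrez 93739, chr8:111940703-111952915), of the GABARAP branch, had 16.3, 17.003 and 16.9 CPM in control, 21.9, 20.9 and 20.7 with dTAG-13, 15.8, 15.6 and 16.4 with doxycycline and 22.7, 22.5 and 21.0 with both. All libraries with dTAG-13 exceeded those without, by 0.34 (adjusted p 5.12e-06) and 0.47 (adjusted p 1.77e-08). An annotated pseudogene of Gabarapl2 could take some of its reads.

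Map1lc3a (Entrez 66734, chr2:155276364-155278073), the LC3A gene, had 18.5, 18.6 and 17.9 CPM in control, 22.7, 20.9 and 23.0 with dTAG-13, 18.6, 18.3 and 19.0 with doxycycline and 22.6, 23.5 and 22.4 with both. It rose by 0.27 (adjusted p 0.000116) and 0.29 (adjusted p 4.68e-05), with no overlap between the groups compared. Gabarap (Entrez 56486, chr11:69991370-69994949) had 44.6, 45.0 and 46.6 CPM in control, 52.5, 51.7 and 55.2 with dTAG-13, 58.0, 55.4 and 55.6 with doxycycline and 58.7, 62.0 and 59.4 with both. The controls were lowest and the libraries with both agents highest. Its log2 fold changes with dTAG-13 were 0.23 (adjusted p 6.4e-06) and 0.092 (adjusted p 0.0429), and the second call was lost without any 1 of 8 libraries, without a filter and with a replicate block. Gabarapl1 rose by 0.13 and 0.16 (adjusted p 0.00534 and 0.000947), and the first call was lost without the third control library (0.099). The length and GC correction reduced these rises for all but Map1lc3b. After it Map1lc3b (0.39 and 0.30) was called in both comparisons, Map1lc3a only against control (0.20, then 0.13) and Gabarapl2 only among doxycycline-treated cells (0.088, then 0.17). Gabarapl1 was called in neither (0.042 and 0.018), and Gabarap was 0.043, not called, and -0.18, called lower.

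Sqstm1 (Entrez 18412, chr11:50200152-50210820), the cargo receptor p62, was the most abundant member per kilobase of the longest transcript and was sorted by both agents. It had 1767, 1772 and 1741 CPM in control, 1865, 1838 and 1853 with dTAG-13, 1509.6, 1516 and 1528 with doxycycline and 1645, 1642 and 1642 with both. The dTAG-13 libraries were highest, then control, then both agents, then doxycycline, without overlap. It rose by 0.073 (SE 0.0167, edgeR adjusted p 0.000205) and 0.11 (SE 0.0167, adjusted p 1.28e-07) with dTAG-13. It fell by 0.21 (adjusted p 1.42e-13) with doxycycline against control and by 0.17 (adjusted p 8.43e-11) when doxycycline was added to dTAG-13. Of its exon bases, 20.5% are shared with Mrnip on the opposite strand, which was at 6.06 CPM. Of the conjugation enzymes, Atg5 rose by 0.30 and 0.23 (adjusted p 1.96e-07 and 1.95e-05) and Atg7 fell by 0.22 in both (adjusted p 0.000335 and 0.000437). After the correction Atg5 was called only against control (0.10, then 0.046) and Atg7 in neither (-0.087 and -0.078).

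**Figure D4:**
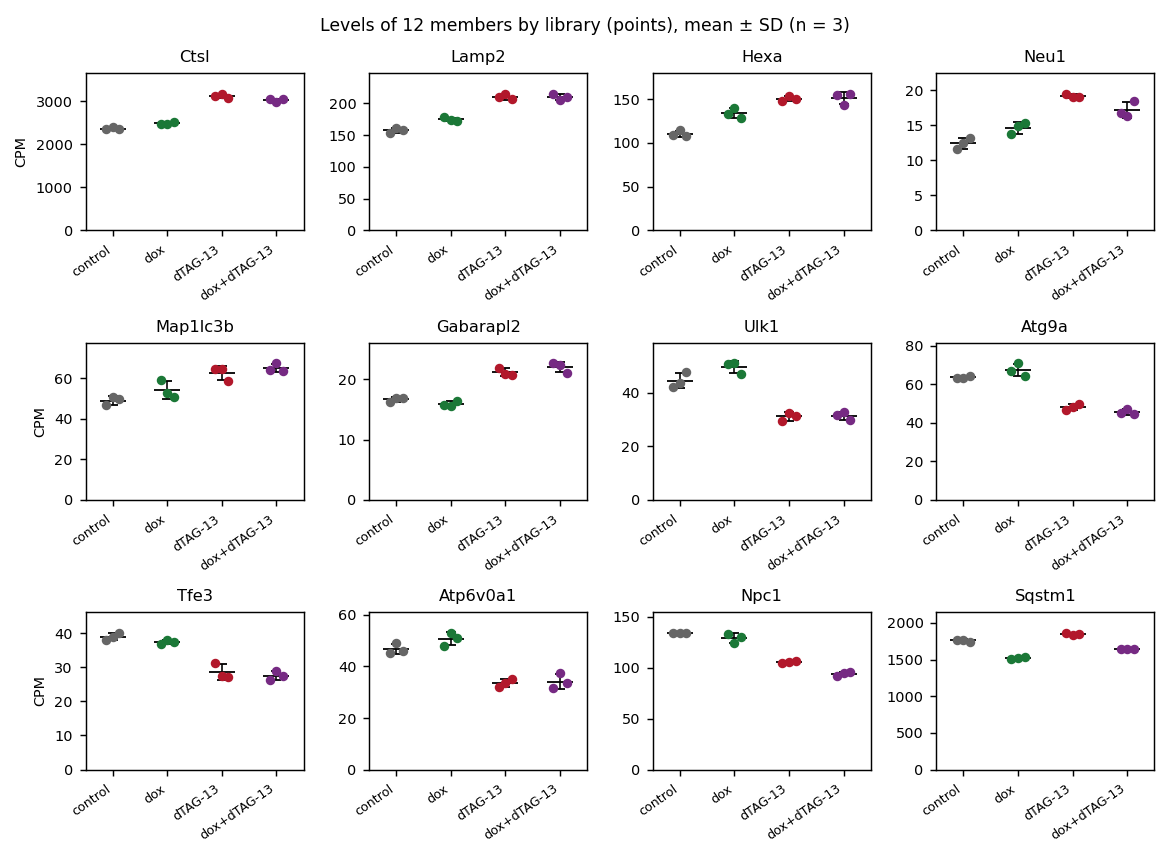
CPM of selected members is shown for each of the 12 libraries by group, with the mean ± SD of each group and axes that start at 0. The Ulk1 points with dTAG-13 lie under those without it, the Ctsl points lie above, and Sqstm1 falls into 4 separate groups.

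In doxycycline against control, most hydrolases rose while Sqstm1, Wipi2 and Becn1 fell. Called were 29 of 48 members, 24 higher and 5 lower, against a background of 33.5% of all genes (14.8% higher, 18.7% lower). The median was 0.083 over members and -0.010 over all genes, and libraries did not overlap for 32 members (43.9% of all genes). Of the 13 tested hydrolases, 11 rose and 1, Ctsz, fell. Besides Hyal1 (0.71, adjusted p 0.0235, lost without the first control or the third doxycycline library, range 0.45 to 0.85), Gla led (0.43), followed among hydrolases by Tpp1 (0.29), Hexa (0.28, adjusted p 3.15e-08), Neu1 (0.24, adjusted p 0.00879), Gaa (0.23, adjusted p 1.23e-08) and Glb1 (0.22, adjusted p 0.000302). The Neu1 call was lost without the first control library (0.19 to 0.30 over single omissions) or the third doxycycline library. Grn rose by 0.20 (adjusted p 2.72e-09) and Gabarap by 0.31 (adjusted p 6e-08). Against these stood Wipi2, which fell by 0.19 (adjusted p 5.09e-07), and Atp6v1h, which fell by 0.10 (adjusted p 0.00413) and lost its call without the second control or the second doxycycline library. Rises were called for Ulk1 (0.16), Rb1cc1 (0.10) and Map1lc3b (0.15) although their library ranges overlapped, and each call was lost without the first control library. The Rb1cc1 call was also lost without the second control library or the first or the third doxycycline library (0.080 to 0.10), by DESeq2 (0.096) and after the length and GC correction (0.022). The Map1lc3b call was also lost without the first doxycycline library (0.091). With 11 libraries the members called ranged from 22 to 30.

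When doxycycline was added to dTAG-13, 1 of the 13 tested hydrolases rose and 5 fell, of which only Ctsz was called lower in every setting tried. The fall of Gusb (-0.081, edgeR adjusted p 0.0431) was lost without any 1 of 9 libraries, by DESeq2 and once corrected for length and GC content (-0.069). Of 48 members 17 were called, 5 higher and 12 lower, against 20.4% of all genes (10.7% higher, 9.64% lower), with a median of -0.037 against -0.001. Libraries did not overlap for 22 members, compared with 34.3% of all genes. Without the third library of both agents 11 were called, 7 of them lower, and without the third dTAG-13 library 3 were called higher. By library totals without TMM factors, 3 were higher and 18 lower, and all genes moved to 7.17% higher and 16.5% lower. Gla (0.40), Gabarap (0.18, adjusted p 0.00107) and Atp6v1e1 (0.13, adjusted p 0.00117) were the largest rises, and the last was not called once corrected for length and GC content (0.071). Hyal1 (-0.80, adjusted p 0.0219), Rb1cc1 (-0.21, adjusted p 6.25e-05) and Sqstm1 were the largest falls. The Hyal1 call was lost without any 1 of 4 libraries, the first and the third with both agents and the first and the second with dTAG-13 (-0.98 to -0.71). Of 13 members called in both doxycycline comparisons, which share no library, 4 rose in both and 4 fell in both. Shared calls were not counted over all genes, of which 33.5% were called against control and 20.4% on the dTAG-13 background. Ctsl, Glb1, Hyal1, Psap and Rb1cc1 rose against control and fell on the dTAG-13 background. Of these falls, that of Ctsl (-0.047) was lost without any 1 of 9 libraries, by DESeq2 and once corrected for length and GC content (-0.014), that of Glb1 was lost without the third library of both agents (-0.13) or the second or the third dTAG-13 library (-0.14 in each), and that of Psap without the first library of both agents (-0.057). Across the 48 members the Pearson correlation of the doxycycline comparisons was -0.12 and the Spearman value 0.30, and across all genes the Pearson value was 0.37.

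The interaction, the dTAG-13 effect with doxycycline minus that without it, was called lower for 19 members and higher for 1 of 48. This compares with 22.9% of all genes called, 13.2% higher and 9.64% lower. The median was -0.10 over members and 0.005 over all genes. Of the 13 tested hydrolases 10 were lower, and these included 5 of 6 proteases (Ctsz excepted) and 5 of 7 glycosidases (Gla and Gusb excepted). The lower calls also took in Lamp1, Lamp2 and Mcoln1 of the membrane proteins, Psap and Grn, Rb1cc1 and Atg9a, and Atp6v0d1 and Atp6v1a. None of the 8 conjugation genes and receptors was called by edgeR or by DESeq2, with differences from -0.14 to 0.12, and 1 had an unadjusted p under 0.05. Gabarap (-0.14) was called lower by library totals alone (-0.21) and after the length and GC correction (-0.22). Hyal1 had the largest interaction (-1.51, SE 0.356, edgeR adjusted p 0.00165), called without each library in turn (-1.69 to -1.25). Neu1 (-0.39, adjusted p 0.00315), Glb1 (-0.38, adjusted p 6.07e-05), Rb1cc1 (-0.31, adjusted p 2.66e-05) and Gaa (-0.28, adjusted p 7.91e-07) followed. Scarb2 was the member with a positive call (0.14, adjusted p 0.0111), which was not made by library totals alone (0.067). Of the 20 calls, 13 were made in every setting tried, all of them lower.

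Members with TCACGTGA in the promoter window were set beside the 33 tested members whose window lacked it, as a description. Against control with dTAG-13, 5 of 7 were higher and none lower, compared with 15 higher and 10 lower of 33 (30.0% and 32.1% of all genes). With doxycycline 6 of 7 were higher and none lower, compared with 16 and 3 of 33 (14.8% and 18.7% of all genes). Among doxycycline-treated cells, dTAG-13 gave 2 higher and 2 lower of 7, and 13 and 13 of 33 (30.7% and 33.4% of all genes). The interaction was lower for 5 of 7 and for 12 of 33 (9.64% of all genes). The counts of none lower among the 7 were also 0 by DESeq2 and at an unadjusted p under 0.05. They depend on the motif: with the core CACGTG, dTAG-13 against control gave 9 higher and 2 lower of 13, and 11 and 8 of 27 without it. For doxycycline against control these were 10 and 0 of 13, and 12 and 3 of 27. Among doxycycline-treated cells, dTAG-13 gave 4 and 5 of 13, and 11 and 10 of 27. The interaction was lower for 9 of 13 and for 8 of 27. The difference between members with and without the motif was not tested.

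Other genes of the same pathways were counted from 5 lists of 152 genes, of which 139 were tested. With dTAG-13 against control 58 were higher and 37 lower (41.7% and 26.6%, beside 30.0% and 32.1% of all genes). Among doxycycline-treated cells 50 and 45 were called (36.0% and 32.4%, beside 30.7% and 33.4%), shares near those of all genes. With doxycycline against control 37 were higher and 13 lower (26.6% and 9.35%, beside 14.8% and 18.7%). With doxycycline added to dTAG-13 the counts were 15 and 17 (10.8% and 12.2%, beside 10.7% and 9.64%), and in the interaction 11 and 20 (7.91% and 14.4%, beside 13.2% and 9.64%). The smaller lists that follow are read against the same shares of all genes. The other autophagy genes gave 16 higher and 15 lower of 42 with dTAG-13 against control, and 13 and 17 among doxycycline-treated cells. The genes of mTORC1 and TFEB control gave 11 and 9 of 32, and 12 and 12. In the interaction, 2 of the 42 were higher and 7 lower, and 6 of the 32 were higher and 4 lower. The other V-ATPase subunits gave 7 higher and none lower of 9 against control, and 6 and none among doxycycline-treated cells. None was lower by DESeq2 or at an unadjusted p under 0.05 either, though the lowest log2 fold changes were -0.549 and -0.439, not called. Atp6v0b, a proton channel subunit, led in both (0.62 and 0.66). Values for this list after the length and GC correction, which removed or reversed several rises of the listed subunits, are not given here. The other lysosomal enzymes and cofactors had interactions that were lower in 7 and higher in 2 of 36, and the other membrane and transport proteins in 1 and higher in none of 20 (1 at an unadjusted p under 0.05, none by DESeq2).

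The genes named next were picked among called genes at a mean of at least 1 CPM. Among these lysosomal enzymes and their carriers, the protease gene Ctso rose most (0.73 and 0.55 with dTAG-13 without and with doxycycline). Igf2r, the mannose 6-phosphate receptor that delivers hydrolases, fell most (-0.66 and -0.71). Igf2r had 145.9 ± 4.03 CPM in control and 92.0 ± 1.68 with dTAG-13, and its values once corrected for length and GC content were -0.28 and -0.27. Of the membrane list, Cd63 rose by 0.44 against control (adjusted p 0.00448) and Cd68 by 0.79 among doxycycline-treated cells (adjusted p 0.00262) from 1.03 CPM, and neither was called after the correction (0.20 and 0.51). The transporter gene Abca2 had values of -0.46 and -0.48, and -0.002 and 0.035 after it. Of the other autophagy genes, Atg9b rose most against control (0.85, from 1.26 CPM) and Wdfy3, a scaffold of selective autophagy, fell most (-0.61, and -0.14 after the correction). Among doxycycline-treated cells Vmp1, which acts in autophagosome formation, rose by 0.57, and Plekhm1, an adaptor for fusion with lysosomes, had -0.76 (-0.37 after the correction). In the mTORC1 list, Rragd rose by 0.47 and Sesn2 had -0.63 against control. Among doxycycline-treated cells Lamtor5 rose by 0.55 (0.12 after the correction) and Tsc2 had -0.60 (-0.21).

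Transcript length moved with the dTAG-13 results. Over the 48 members, the Spearman correlation of log2 fold change with the length of the longest transcript was -0.38 against control and -0.34 among doxycycline-treated cells, and over 11745 genes it was -0.44 and -0.58. Members called higher against control had a median length of 2374 bases and those called lower 3895. Among doxycycline-treated cells these medians were 2474 and 3558. The correction for length and GC brought the members' correlations to -0.054 and 0.080. It left 22 members higher and 11 lower against control, beside 23.4% and 30.6% of all genes. Ctsl, Lamp2, Neu1 and Hexa remained higher, and Ulk1, Atg9a, Atp6v0a1, Tfe3 and Npc1 lower, in both comparisons. For doxycycline against control the counts were 26 and 5 (14.4% and 19.0% of all genes), and for the interaction 2 and 16 (12.8% and 7.85%). The correction also made calls that were absent before it. Against control 2 members became higher, Wipi2 (0.27) and Flcn (0.13), 2 became lower, Atp6v1d (-0.13) and Ctsz (-0.056), and the 2 rises of Atp6v1e1 (-0.10) and Atp6v1h (-0.080) became falls. Among doxycycline-treated cells 2 became higher, Ctsa (0.14) and Scarb2 (0.14). In these cells 5 became lower, Atp6v0c (-0.20), Atp6v0d1 (-0.18), Ctsz (-0.14), Atp6v1d (-0.13) and Lamp1 (-0.11), and the 2 rises of Atp6v1e1 (-0.19) and Gabarap (-0.18) became falls. The correction removed 8 further calls against control and 7 among doxycycline-treated cells. The part of length in the members' results beyond this correction was not tested.

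**Figure D5:**
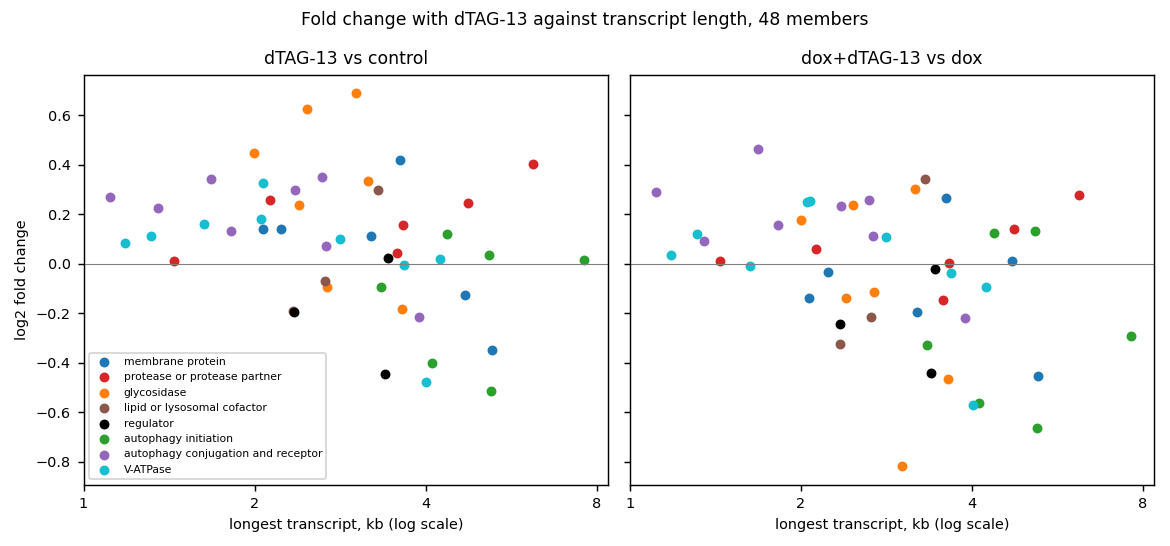
The log2 fold change with dTAG-13 against control and among doxycycline-treated cells is plotted against the length of the longest transcript in kb on a log axis, 1 point for each of the 48 members, coloured by role. Longer members tend to lie lower (Spearman -0.38 and -0.34 over the members).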

How the data were processed

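The deposited table holds raw read counts per Entrez gene in 12 libraries, per the file headers, which show the Subread format. The submitters' processing notes name bcl2fastq 2.17, featureCounts and mm10. The aligner and the strand setting were not given in the sources used here. Libraries were poly(A)-selected with NEBNext Ultra II chemistry, per the labels' protocols. Symbols were matched for 25275 of 27179 IDs through RefSeq (GRCm38.p6), and all 12 columns were mapped to samples by title.

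In R 4.3.3, edgeR 4.0.16 (robust quasi-likelihood F test) was fitted to the 12 libraries with 1 mean per group, filterByExpr by group, TMM factors (0.9647 to 1.0349) and Benjamini-Hochberg adjustment over 12910 genes, with calls at adjusted p under 0.05. The 5 comparisons were dTAG-13 without and with doxycycline, doxycycline without and with dTAG-13, and their interaction. A fold change is the fitted log2 value. Library totals of 22165538 to 32809573 counts set the counting error. RPKM and the length correction use the longest GENCODE M21 transcript. The code was tested on simulated counts.

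The members, the related lists and the tests were chosen with earlier results of these data known. Library values are printed for 12 members in every case, for called members with the 5 largest rises and falls in 3 pairwise comparisons, and for the 3 largest in doxycycline added to dTAG-13 and in the interaction. Of each related list, the called gene with the largest rise and the one with the largest fall in each dTAG-13 comparison were named, at a mean of at least 1 CPM. The settings tried were RLE factors, library size only, DESeq2 1.42.0, no filter, a filter of 1 CPM in 3 libraries, only the groups compared, a replicate block, a spline offset for length and GC (5 degrees of freedom, lengths for 91% of genes tested), both together, and each of 12 libraries left out. Proteins were not used here. The replicate numbers did not pair the libraries.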

Additional observations from a re-analysis of the deposited data

Results flagged for a closer look

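For 20 members the dTAG-13 effect differed between cells with and without doxycycline by the test of that difference itself, the interaction in edgeR's fit (Benjamini-Hochberg adjusted p under 0.05, against 22.9% of all genes called). Hyal1, the hyaluronidase with few reads, had a difference of -1.507 (SE 0.356, adjusted p 0.00165): its mean went from 1.03 ± 0.323 to 1.65 ± 0.161 CPM without doxycycline and from 1.68 ± 0.435 to 0.948 ± 0.202 CPM with it (mean ± SD, n = 3). Among the other glycosidases, Neu1 had -0.392, Glb1 -0.379, Gaa -0.283 and Hexa -0.27 (adjusted p 0.00315, 6.07e-05, 7.91e-07 and 5.11e-05). Glb1 rose from 40.6 ± 3.71 to 47.8 ± 1.65 CPM and fell from 47.3 ± 0.562 to 43.0 ± 1.2 CPM. Of the proteases, Ctsd had -0.2, Tpp1 -0.189, Ctsa -0.154, Ctsl -0.124 and Ctsb -0.105 (adjusted p 3.06e-05, 0.0151, 0.00286, 9.89e-05 and 0.00405). The Tpp1 call was lost without the first control library or the third library with both agents (-0.22 to -0.16), and the calls on Ctsl and Ctsb were lost after the length and GC correction (-0.057 and -0.067). Of the cofactors, Psap had -0.145 and Grn -0.133 (adjusted p 2.66e-05 and 0.00188).

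Of the membrane proteins, Mcoln1 had -0.28, Lamp1 -0.171 and Lamp2 -0.15 (adjusted p 0.00193, 0.00012 and 0.00316), and Scarb2 had 0.138 (adjusted p 0.0111), the one positive call. Of autophagy initiation, Rb1cc1 had -0.308 (adjusted p 2.66e-05) and Atg9a -0.163 (adjusted p 0.0392). The Atg9a call was lost with RLE factors (-0.15), with DESeq2, after the length and GC correction (-0.14) and without any 1 of 8 libraries (-0.20 to -0.13). Of the V-ATPase, Atp6v0d1 had -0.173 and Atp6v1a -0.109 (adjusted p 0.0145 and 0.018). Atp6v0d1 was not called without the first control or the third dTAG-13 library, and Atp6v1a without any 1 of 4 libraries (the first control, the third doxycycline, the first with both agents and the third dTAG-13 library) or after the correction (-0.073).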

How the results depend on the processing

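Each of 240 member values was recomputed. Direction and side of the threshold stayed for 234 with RLE factors, 211 with library size only, 236 with DESeq2, 232 with no filter, 237 with a filter of 1 CPM in 3 libraries, 187 of 192 with only the groups compared, 193 with the length and GC correction and 192 with that and a replicate block. With the replicate block alone 236 stayed (26 and 11, 20 and 17, 25 and 5, 5 and 10, and 1 and 19 members higher and lower in the order of the comparisons). The numbers share no culture across groups, and deviations of same-numbered libraries correlated at -0.021 to 0.08 over 18 pairs, with 3 of 12 libraries closest to their own number. After the length and GC correction, values changed sign for Ctsz (-0.056 against control, -0.057 with the block, and -0.141 among doxycycline-treated cells), Gaa (0.012), Atp6v1e1 (-0.103 and -0.186), Atp6v1h (-0.08 and -0.024), Gabarap (-0.182, -0.183 with the block), Atp6v0c (-0.204) and Abca2 (0.035). With library size only, Psap changed sign (0.022). The causes were not tested. Members called higher with doxycycline on dTAG-13 numbered 3 with library size only, against 5. Members higher in the interaction numbered 2 with RLE factors, the 1 CPM filter, the length and GC correction and its blocked form, and 0 with library size only, which also raised related genes called in the interaction from 31 to 52. The motif count of 7 became 13 for the core and 1 for the 10-base palindrome. The members' summed CPM, 10724 in control, 10987 with doxycycline, 11447 with both and 11894 with dTAG-13, became 10386, 10910.0, 11535 and 12274 with library size only, and 11488 with both under RLE factors.

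Without single libraries, members called were 35 to 38 with dTAG-13 against control (24 to 27 higher, 11 lower), 33 to 38 among doxycycline-treated cells (18 to 21 and 15 to 19), 22 to 30 with doxycycline against control (17 to 25 and 4 to 6), 11 to 20 with doxycycline on dTAG-13 (3 to 7 and 7 to 13) and 16 to 21 in the interaction (1 higher, 15 to 20 lower). Related genes called were 91 to 96, 90 to 96, 43 to 53, 25 to 32 and 22 to 34 in that order. In every setting, the calls held for 24 of 37, 25 of 38, 20 of 29, 8 of 17 and 13 of 20 members. The effect of depth was not tested.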
